A study of Mus musculus with 15 samples.

Results

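The immediate early genes and the feedback genes of the mitogen-activated protein kinase (MAPK) pathway were followed as a list of 38 genes, represented by 59 of 56605 probes and 38 of 37008 gene names on the arrays. Members were found by the gene name printed in the scanner files, and 21 of them had 1 probe and 17 had several. The series holds 15 samples in 5 groups of 3, each hybridised to an Agilent mouse array in 1 colour to measure RNA levels. KHT samples were mouse pancreatic cancer cells kept for 24 h in medium conditioned by heterozygous (HT) pancreatic stellate cells (PSC). KWT samples were the same kind of cells in medium from wild-type (WT) PSC, and KC samples had control medium. PSC HT and PSC WT samples were stellate cells isolated from mice of these genotypes and cultured for 2 weeks until activated. The labels used here name neither the heterozygous locus, the age of the mice nor the cancer cell line, and they do not say whether the 3 replicates of a group came from separate cultures or animals. The p-values thus cover no more than the variation among the samples at hand, some or all of which may be technical.

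When a growth factor or cytokine receptor is engaged, the Ras, Raf, MEK and ERK kinases are activated in turn, and existing transcription factors switch on the immediate early genes within minutes without new protein synthesis. Many of these genes encode transcription factors themselves, such as the AP-1 subunits, the EGR zinc finger factors, Myc and the NR4A orphan nuclear receptors. A second set encodes brakes on the same cascade, among them the dual-specificity phosphatases that dephosphorylate MAP kinases and the Sprouty and Spred proteins that inhibit Ras and Raf. Pancreatic cancer cells commonly carry an activated Ras, and stellate cells are pancreatic cells that turn fibroblast-like once activated, lay down matrix and secrete growth factors.

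The promoters of 4 members are shown because serum response factor and CREB, which act at many immediate early promoters, bind short motifs there, and because Dusp5 and Dusp1 were among the members that rose in cancer cells. Each run is the 250 bases before the start in RefSeq (GRCm38.p6), 5′ to 3′ on the strand of the gene, and capitals mark CArG boxes in Dusp5 (chr19:53528895-53529144, + strand), Egr2 (chr10:67537680-67537929, + strand) and Zfp36 (chr7:28379229-28379478, - strand) and the CRE motif in Dusp1 (chr17:26508473-26508722, - strand). For Egr2, with 5 starts listed, the window is that of the most downstream start among those with a CArG box in their window.
Dusp5: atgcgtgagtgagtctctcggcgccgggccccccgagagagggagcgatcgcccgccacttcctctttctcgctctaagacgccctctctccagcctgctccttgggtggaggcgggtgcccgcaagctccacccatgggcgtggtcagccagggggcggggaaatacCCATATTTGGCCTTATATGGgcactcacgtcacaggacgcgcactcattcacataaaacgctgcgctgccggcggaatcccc
Egr2: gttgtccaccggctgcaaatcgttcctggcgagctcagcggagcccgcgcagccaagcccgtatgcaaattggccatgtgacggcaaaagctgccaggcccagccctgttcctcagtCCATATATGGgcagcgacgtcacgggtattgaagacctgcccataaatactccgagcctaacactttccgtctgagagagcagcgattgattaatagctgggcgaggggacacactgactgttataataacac
Zfp36: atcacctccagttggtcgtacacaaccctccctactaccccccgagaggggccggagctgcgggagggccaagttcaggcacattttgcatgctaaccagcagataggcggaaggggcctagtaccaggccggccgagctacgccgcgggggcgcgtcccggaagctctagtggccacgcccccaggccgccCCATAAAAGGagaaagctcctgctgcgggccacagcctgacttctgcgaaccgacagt
Dusp1: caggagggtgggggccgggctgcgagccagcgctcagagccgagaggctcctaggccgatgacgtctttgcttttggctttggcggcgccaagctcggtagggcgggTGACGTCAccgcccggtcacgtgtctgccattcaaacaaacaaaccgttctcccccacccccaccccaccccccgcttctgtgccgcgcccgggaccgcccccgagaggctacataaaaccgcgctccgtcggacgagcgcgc
The 2 CArG boxes of Dusp5 abut each other, at 82 to 73 and 72 to 63 bases before the start. That of Zfp36 lay at 58 to 49 bases before it. Windows were listed for 26 of the 38 members, and both strands were searched. A member was counted if any of its listed windows held the motif, so counts of members and shares of windows are in different units. A CArG box was found in 3 of these 26 members and in 1.47% of all 32851 windows. The CRE motif TGACGTCA was found in 2 members, Dusp1 and Maff, and in 1.55% of windows. The EGR motif GCGTGGGCG was found in Maff and in 0.536% of windows, while the AP-1 motif TGACTCA (4.46% of windows) and the ETS motif CCGGAAGT (2.88% of windows) were found in 0 members. A match is a description of these letters and says nothing about binding, and no match says only that the letters are not in this window.

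Values are log2 signals relative to the 75th percentile of the array, so levels of different probes are not compared with each other. Differences are given in log2 units with their SE, from 3 arrays in each group, and a gene passed the threshold at an adjusted p under 0.05 (limma, Benjamini-Hochberg over all genes tested). The share of spots well above background ranged over the arrays from 54.26% to 63.78%, 0 spots were saturated, and arrays of 1 group correlated at r = 0.9928 to 0.9974. Of the 38 members, 35 were well above background on all 15 arrays. Epithelial markers were present in the cancer cells, with the cadherin Cdh1 at 4.22 to 4.49, and 16 of 16 stellate and fibroblast markers were well above background on each PSC array. Of 16 epithelial markers, 8 to 10 were also well above background on the PSC arrays. The signals of these 16 summed to 6.571 to 23.73 times the 75th percentile there, against 662.9 to 791.2 in the cancer cells. On the 9 cancer cell arrays the stellate marker Dcn (decorin) was not well above background, and 6 to 9 of the 16 stellate and fibroblast markers were. The collagen chain Col1a1 read -2.85 on KWT 2, against -4.72 to -3.98 on the other cancer cell arrays, and Cdh1 read -2.45 on PSC HT 3, against -8.22 to -7.61 on the other PSC arrays. Calls of members in the groups of KWT 2 and PSC HT 3 are given with and without that array. For genes of the pathway lists further below, calls are given with all arrays only. The arrays lay on 2 slides, each of which held at least 1 array of every group. Slide 2 held KHT 2, KC 2, PSC HT 2, KWT 2, KWT 3, PSC WT 2 and PSC WT 3, and slide 1 the rest. Comparisons of KWT or PSC WT with the other groups are thus not balanced over the slides.

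The first question was what medium conditioned by HT or WT stellate cells changes in cancer cells. After 24 h in HT PSC medium a set of AP-1 genes, Egr1, Myc, Klf10, Ier2, Ier3 and the MAP kinase phosphatases Dusp1 and Dusp5 were higher than in control medium by 0.32 to 0.71 on the log2 scale, and the zinc finger factor Klf4 was lower by more than 2-fold. In WT PSC medium Fosb, Junb, Ier3 and Dusp5 were higher and Klf4 and Spry4 lower. Of 36 members tested in KHT against KC, 11 rose and 1 fell, which is 33.3% of the members beside 5.47% of 19686 genes (2.97% higher and 2.5% lower). In KWT against KC, 4 rose and 2 fell, 16.7% of the members beside 5.96% of all genes (2.8% higher and 3.15% lower). The members, and the lists below, were chosen with earlier results of these data known. The shares here and below thus describe the lists and are no independent test of them. With each array scaled to its median, 3 rose and 1 fell in KHT (75% higher, against 91.7%) and 2 rose and 1 fell in KWT, while calls over all genes numbered 535 in KHT and 638 in KWT, against 1077 and 1173. These comparisons share the KC arrays. The median difference of the members was 0.19 in KHT and 0.12 in KWT, beside 0.01 and 0.03 over all genes.

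At an unadjusted p under 0.05, 21 members (58.3%) differed between KHT and KC, beside 19.8% of all genes, and 13 (36.1%) between KWT and KC, beside 20.2%. The KHT and KC arrays did not overlap for 19 members that were higher in KHT (14.2% of all genes) and 2 that were lower (10.2%). KWT and KC did not overlap for 15 higher members (14% of all genes) and 3 lower ones (11.3%). On the KC 1 array 14 of the 36 members had their lowest value of all 9 arrays, and on KHT 1 and KHT 3 12 and 7 had their highest. With single arrays left out of KHT against KC, 3 members were higher without KHT 1, KHT 3, KC 1 or KC 2, 7 without KHT 2 and 8 without KC 3, while 1 was lower each time. Klf4, Dusp5, Egr1 and Fosb passed the threshold in all 6 of these fits. In KWT against KC, 2 members were higher without KC 1 and 3 or 4 without another array, and Klf4, Dusp5 and Fosb passed in all 6.

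**Figure D1:**
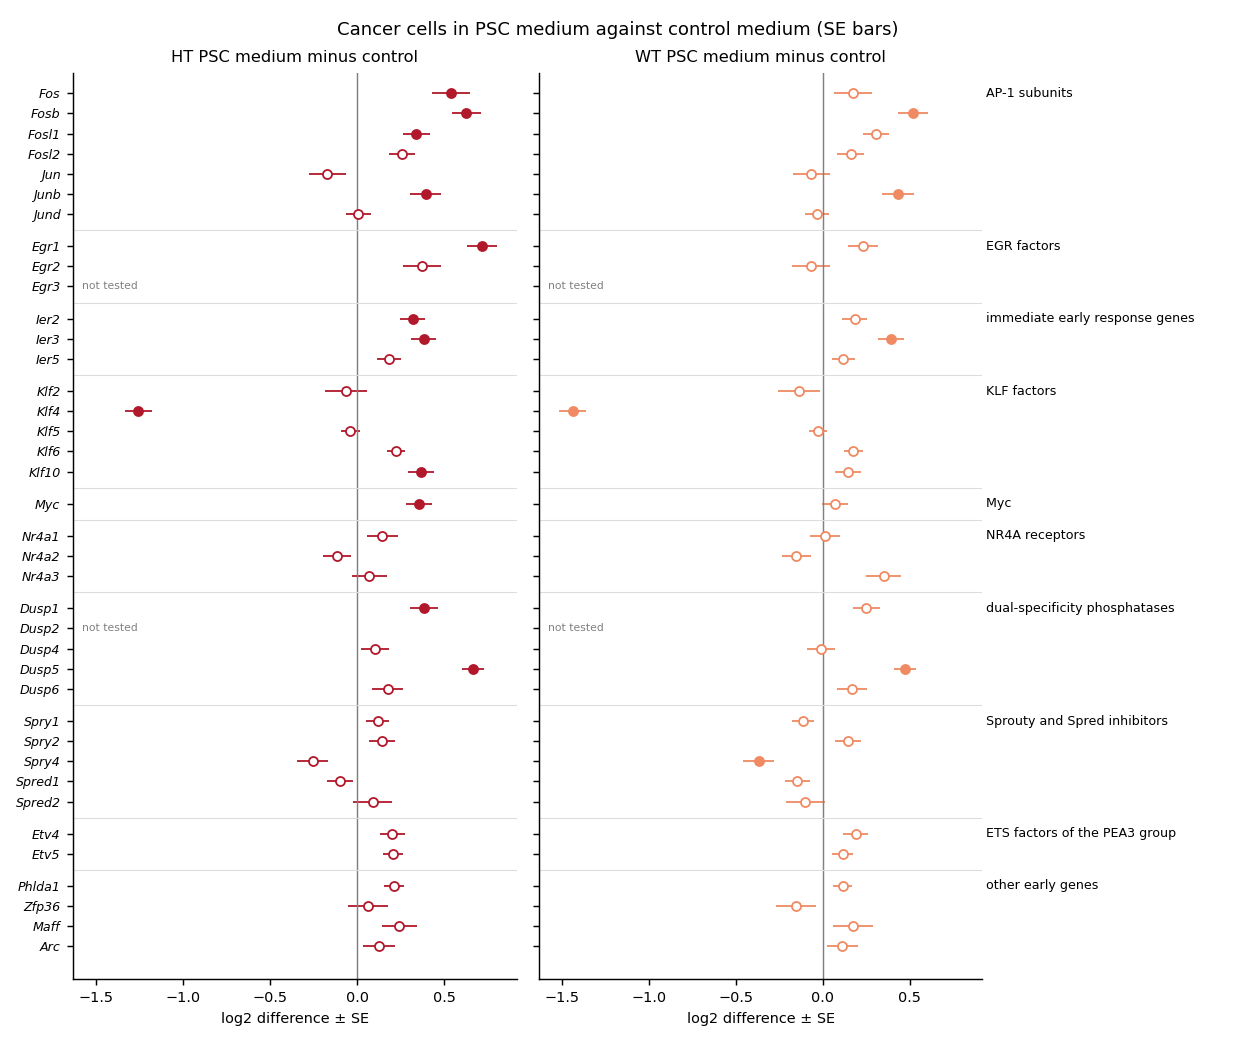
Difference of each member in cancer cells, in log2 units with SE bars, for HT PSC medium (left) and WT PSC medium (right) against control medium, by role. Filled points passed an adjusted p of 0.05. The bars are SEs from limma with 3 arrays a group (Maff in WT PSC medium has 2). Klf4 stands alone at -1.26 and -1.44, and most other members lie between 0 and 0.71.

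AP-1 is a dimer of a Jun family protein with a Fos or Jun family protein. Of its 7 subunit genes, 4 rose in KHT and 2 in KWT. Fosb read -1.63, -1.65 and -1.72 in KHT and -1.89, -1.60 and -1.83 in KWT, against -2.37, -2.26 and -2.25 in KC. Every conditioned-medium array was above every control array, and Fosb rose by 0.63 ± 0.09 in KHT (adjusted p = 0.00522) and 0.52 ± 0.09 in KWT (adjusted p = 0.0101). The probe lies at chromosome 7, 19888168 to 19888227 (mm9, - strand). Within slide 1 the differences were 0.634 in KHT and 0.417 in KWT, and within slide 2 0.611 and 0.541. Without KWT 2, Fosb differed by 0.429 in KWT (adjusted p = 0.0255).

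Fos, the founding member of the family, read 1.16, 1.03 and 1.34 in KHT and 0.90, 0.62 and 0.91 in KWT, against 0.58, 0.59 and 0.74 in KC. The KHT arrays lay above all others, while KWT and KC overlapped. Fos rose by 0.54 ± 0.11 in KHT (adjusted p = 0.028) and had 0.17 ± 0.11 in KWT (adjusted p = 0.426). Its KHT difference ranged from 0.456 to 0.613 with an array left out, and the call was lost without KHT 1, KHT 3, KC 1 or KC 2 (adjusted p up to 0.0914). Fosl1, which encodes Fra-1, read 1.54, 1.53 and 1.57 in KHT and 1.59, 1.51 and 1.44 in KWT, against 1.16, 1.12 and 1.35 in KC. Both media lay above the controls, and Fosl1 passed in KHT (0.34 ± 0.08, adjusted p = 0.0414) and narrowly missed the threshold in KWT (0.30 ± 0.08, adjusted p = 0.0578). In KHT its difference ranged from 0.293 to 0.410 with an array left out, and it passed in 1 of these 6 fits, that without KC 3 (adjusted p up to 0.126).

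Junb, a Jun protein that is less active than Jun itself, read 5.46, 5.37 and 5.22 in KHT and 5.29, 5.35 and 5.53 in KWT, against 4.89, 5.03 and 4.95 in KC. Neither medium overlapped the controls, and Junb rose by 0.39 ± 0.09 in KHT (adjusted p = 0.0433) and 0.43 ± 0.09 in KWT (adjusted p = 0.0274). A dimmer Junb probe gave 0.40 in KHT and 0.51 in KWT. In KHT it passed in 0 of 6 fits with an array left out (0.340 to 0.457, adjusted p up to 0.15), and in KWT in 1 of 6, that without KWT 1 (0.360 to 0.483, adjusted p up to 0.0998). Without KWT 2 the KWT difference was 0.452 (adjusted p = 0.0725), and with the replicate number as a block the KWT call of Junb was lost as well (0.431, adjusted p = 0.0671).
The other 3 subunits did not pass: Fosl2, which encodes Fra-2, had 0.26 ± 0.08 in KHT (adjusted p = 0.101) and 0.16 ± 0.08 in KWT (adjusted p = 0.291). Jun had -0.17 ± 0.10 in KHT and -0.07 ± 0.10 in KWT, the opposite sign to Junb. Jund had 0.01 ± 0.07 and -0.04 ± 0.07.

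Egr1, a zinc finger factor that is among the quickest to respond to ERK, read 1.84, 1.62 and 1.93 in KHT and 1.33, 1.36 and 1.23 in KWT, against 1.12, 1.04 and 1.07 in KC. The 3 groups did not overlap, with KHT highest and KC lowest. Egr1 rose by 0.71 ± 0.09 in KHT (adjusted p = 0.00303), which is 1.64-fold, and had 0.23 ± 0.09 in KWT (adjusted p = 0.179). The KHT difference was 0.785 within slide 1 and 0.573 within slide 2. Egr2 was dimmer, at -4.33, -4.51 and -4.26 in KHT and -4.64, -4.79 and -4.99 in KWT, against -4.86, -4.63 and -4.73 in KC. Only the KHT arrays stood above the controls, by 0.37 ± 0.11, which did not pass (adjusted p = 0.1), and KWT had -0.07 ± 0.11. Egr3 was not well above background on any of the 9 arrays (-5.90, -6.40 and -5.77 in KHT, -7.01, -6.16 and -6.22 in KWT, -6.53, -6.40 and -6.97 in KC) and was not tested there.

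The immediate early response genes Ier2, Ier3 and Ier5 are named for their rapid induction. Ier3, also known as IEX-1 and linked to cell survival and ERK regulation, read 3.46, 3.47 and 3.49 in KHT and 3.41, 3.41 and 3.63 in KWT, against 3.04, 3.12 and 3.12 in KC. All treated arrays lay above the controls, and Ier3 rose by 0.38 ± 0.07 in KHT (adjusted p = 0.0226) and 0.39 ± 0.07 in KWT (adjusted p = 0.0179). In KHT it passed in 1 of 6 fits with an array left out, that without KC 3 (0.353 to 0.396, adjusted p up to 0.0796), and in KWT in 5 of 6, the exception being KC 1 (0.316 to 0.428, adjusted p up to 0.0651; without KWT 2 0.425, adjusted p = 0.0412). Ier2 read 1.41, 1.20 and 1.29 in KHT and 1.25, 1.11 and 1.14 in KWT, against 1.01, 0.94 and 1.01 in KC. The groups of treated cells did not overlap the controls, but Ier2 passed only in KHT (0.32 ± 0.07, adjusted p = 0.0414) and had 0.18 ± 0.07 in KWT (adjusted p = 0.201). A dimmer probe of Ier2 gave 0.13 and 0.12, and in KHT the main probe passed in 1 of 6 fits with an array left out, that without KHT 2 (0.264 to 0.369, adjusted p up to 0.137). Ier5 did not pass in either medium (0.18 ± 0.07 in KHT and 0.12 ± 0.07 in KWT).

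Krüppel-like factors are zinc finger regulators of growth and differentiation. Klf4, which in epithelia promotes differentiation and slows the cell cycle, read 3.96, 3.79 and 3.93 in KHT and 3.82, 3.71 and 3.61 in KWT, against 5.22, 5.09 and 5.15 in KC. Both media lay more than 1 log2 unit below every control array. Klf4 fell by 1.26 ± 0.08 in KHT (2.39-fold, adjusted p = 0.000218) and by 1.44 ± 0.08 in KWT (2.71-fold, adjusted p = 8.44e-05), the only member past 2-fold in either medium, where 0.386% and 0.615% of all genes were past the threshold and at least 2-fold lower. Its single probe lies at chromosome 4, 55540833 to 55540892 (mm9, - strand). Within slide 1 the differences were -1.236 in KHT and -1.365 in KWT, and within slide 2 -1.303 and -1.430. Without KWT 2, Klf4 had -1.439 in KWT (adjusted p = 0.00101).
Klf10, induced early by TGF-beta, went the other way in KHT, at 1.27, 1.08 and 1.26, with 1.05, 1.01 and 0.89 in KWT, against 0.81, 0.81 and 0.89 in KC. It rose by 0.37 ± 0.07 in KHT (adjusted p = 0.0281) and had 0.14 ± 0.07 in KWT (adjusted p = 0.334), where the arrays overlapped the controls. The KHT call was lost without KHT 1, KHT 3, KC 1 or KC 2 (0.336 to 0.427, adjusted p up to 0.109). A dim Klf10 probe, not well above background in any of these groups, gave the opposite sign (-0.91 in KHT and -0.16 in KWT). Klf6 came near the threshold in KHT (0.22 ± 0.05, adjusted p = 0.0508) and had 0.17 ± 0.05 in KWT. Klf2 and Klf5 had -0.06 and -0.04 in KHT and -0.14 and -0.03 in KWT, and a dim second Klf5 probe, well above background, gave -0.46 in KHT and -0.63 in KWT.

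Myc, the growth-promoting factor whose mRNA is short-lived, read 3.66, 3.60 and 3.81 in KHT and 3.49, 3.38 and 3.34 in KWT, against 3.30, 3.31 and 3.40 in KC. The KHT arrays lay above all others, and Myc rose by 0.35 ± 0.07 (adjusted p = 0.0323), while KWT overlapped the controls (0.07 ± 0.07, adjusted p = 0.654). A second probe gave 0.22 in KHT and -0.05 in KWT. The KHT call was lost without KHT 1, KHT 3, KC 1 or KC 2 (0.294 to 0.397, adjusted p up to 0.0984). Of the NR4A receptors, whose genes respond to many stimuli including cyclic AMP, none passed. Nr4a3 came nearest, in KWT, at -3.34, -3.14 and -3.39, with -3.63, -3.53 and -3.55 in KHT, against -3.80, -3.47 and -3.65 in KC (0.35 ± 0.10 in KWT, adjusted p = 0.0866; 0.07 ± 0.10 in KHT). Nr4a1 had 0.14 and 0.01 and Nr4a2 -0.12 and -0.15 in KHT and KWT.

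**Figure D2:**
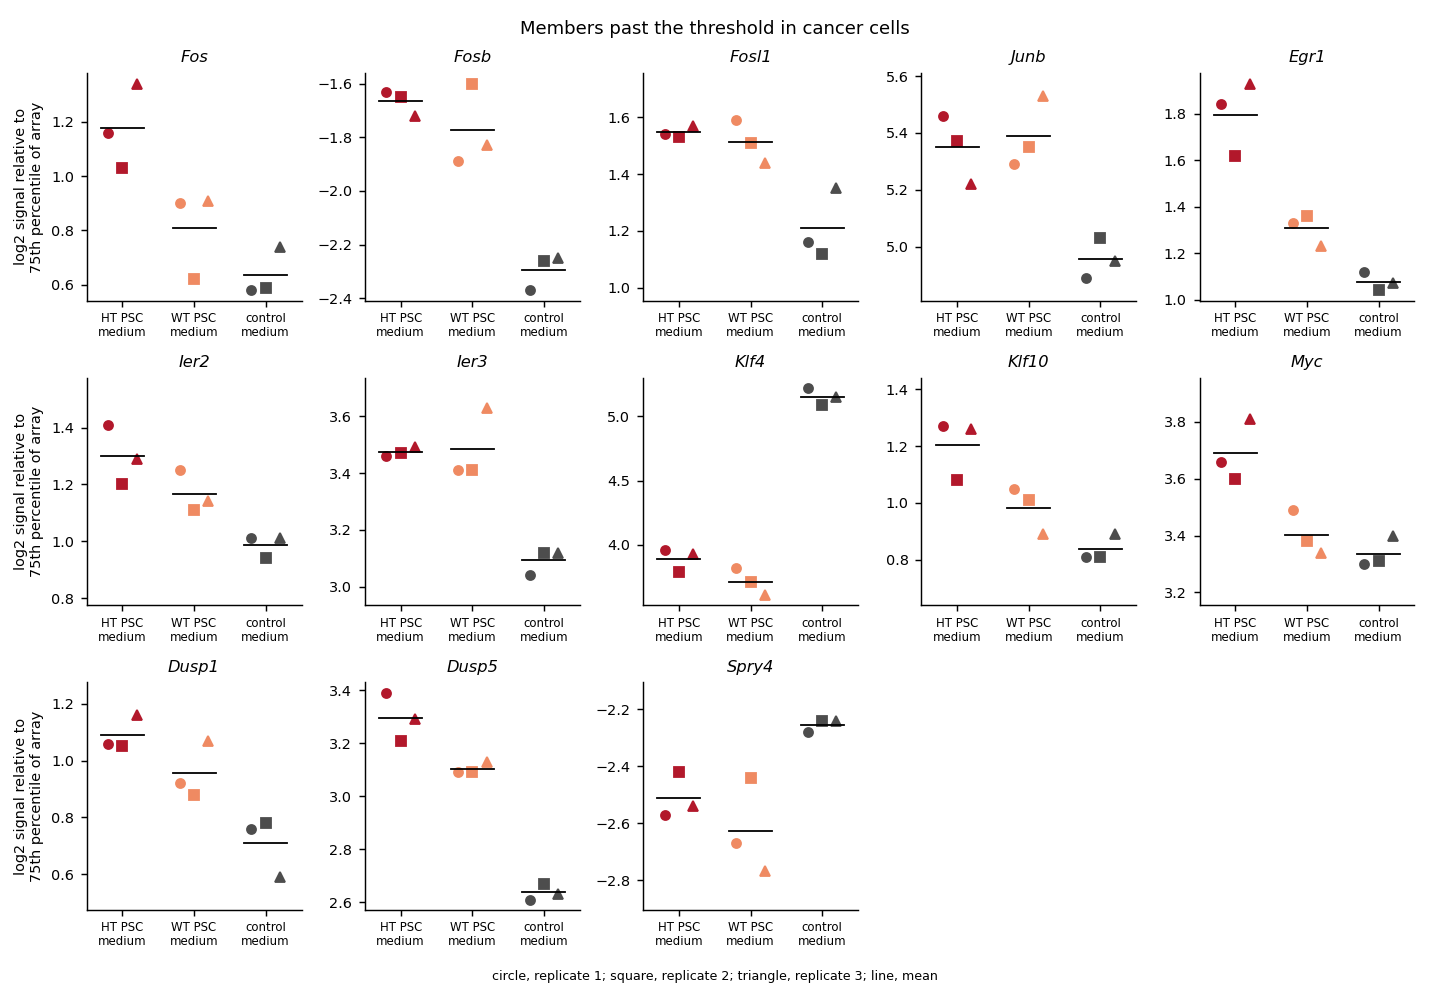
Values on every cancer cell array (log2 signal relative to the 75th percentile of the array) of the 13 members that passed the threshold in HT or WT PSC medium against control medium. Points are arrays, shaped by replicate number, and lines are group means. Klf4 and Spry4 are lower in both media than in control medium, and the other 11 are higher in HT PSC medium. The arrays of Egr1, Fos, Myc, Klf10 and Dusp5 lie higher in HT than in WT PSC medium, but no gene passed the threshold between these media.

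Of the dual-specificity phosphatases 2 of 4 tested rose in KHT and 1 of 4 in KWT. Dusp5, a nuclear phosphatase specific for ERK, read 3.39, 3.21 and 3.29 in KHT and 3.09, 3.09 and 3.13 in KWT, against 2.61, 2.67 and 2.63 in KC. The 3 groups did not overlap, and Dusp5 rose by 0.66 ± 0.06 in KHT (1.59-fold, adjusted p = 0.00119) and 0.47 ± 0.06 in KWT (adjusted p = 0.00414). Its brighter probe lies at chromosome 19, 53616779 to 53616838 (mm9, + strand). A dimmer probe, at chromosome 19, 53615682 to 53615741, gave 0.36 in KHT and 0.49 in KWT. Within slide 1 the brighter probe differed by 0.725 in KHT and 0.472 in KWT, and within slide 2 by 0.544 and 0.444. Without KWT 2 it differed by 0.478 in KWT (adjusted p = 0.0203).
Dusp1, a nuclear phosphatase that also acts on p38 and JNK, read 1.06, 1.05 and 1.16 in KHT and 0.92, 0.88 and 1.07 in KWT, against 0.76, 0.78 and 0.59 in KC. All 6 treated arrays exceeded the controls, and Dusp1 passed in KHT (0.38 ± 0.08, adjusted p = 0.0284) but not in KWT (0.25 ± 0.08, adjusted p = 0.114). The KHT call was lost in all 6 fits with an array left out (0.326 to 0.417, adjusted p 0.0557 to 0.0987). Dusp6, the cytoplasmic ERK phosphatase, did not pass (0.18 ± 0.09 in KHT and 0.17 ± 0.09 in KWT), nor did Dusp4 (0.10 ± 0.08 and -0.01 ± 0.08), whose second probe gave opposite signs (-0.08 and 0.02). Dusp2 was well above background on 1 of the 9 arrays and was not tested.

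The Sprouty and Spred inhibitors did not rise. Spry4 read -2.57, -2.42 and -2.54 in KHT and -2.67, -2.44 and -2.77 in KWT, against -2.28, -2.24 and -2.24 in KC. All treated arrays lay below the controls, and Spry4 fell by 0.37 ± 0.09 in KWT (adjusted p = 0.0495), with -0.26 ± 0.09 in KHT (adjusted p = 0.154). The KWT call rests on the arrays included: it was kept in 1 of 6 fits with an array left out, that without KWT 2 (-0.463, adjusted p = 0.0219), with differences up to -0.299 and adjusted p up to 0.166 in the others. The remaining 4 had -0.10 to 0.14 in KHT and -0.15 to 0.14 in KWT. In KHT the second probes of Spred1 and Spred2 gave 0.07 and -0.11, opposite in sign to the main ones (-0.10 and 0.09).
The ETS factors Etv4 and Etv5, which read out ERK activity in many tissues, did not pass: Etv4 had 0.20 ± 0.07 in KHT and 0.19 ± 0.07 in KWT, and Etv5 0.21 ± 0.06 in KHT (adjusted p = 0.0898) and 0.11 ± 0.06 in KWT. Of the other early genes, Phlda1 (0.21 ± 0.06 in KHT, adjusted p = 0.0709, and 0.11 ± 0.06 in KWT) came nearest. Maff, a small bZIP protein, had 0.24 ± 0.10 in KHT and 0.17 ± 0.11 in KWT, where its spot on KWT 2 was left out as an outlier. Zfp36, which speeds the decay of mRNAs with AU-rich elements, had 0.06 ± 0.11 and -0.16 ± 0.11, and Arc, best known from synapses, 0.12 ± 0.09 and 0.11 ± 0.09.

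Genes around the members were read from lists of the same pathway. Of 23 core genes of the ERK cascade (Ras, Raf, MEK and ERK and their adaptors and GTPase-activating proteins), 0 passed in KHT or KWT against KC by limma, with 3 and 3 at an unadjusted p under 0.05 and medians of 0.05 and -0.03. Over all genes 5.47% and 5.96% passed, and 19.8% and 20.2% had an unadjusted p under 0.05. Of 40 other immediate early genes, 12 rose and 1 fell in KHT (32.5%) and 9 rose and 3 fell in KWT (30%), with medians of 0.10 and 0.08. The bZIP stress factor Atf3 rose by 0.68 ± 0.07 in KHT (adjusted p = 0.00172) and 0.60 ± 0.07 in KWT (adjusted p = 0.0021), and the matricellular protein gene Ccn1 by 0.86 ± 0.09 (adjusted p = 0.00203) and 0.88 ± 0.09 (adjusted p = 0.00126). In KHT the clock-linked repressor Bhlhe40 (0.49 ± 0.06) and Ccn2 (0.50 ± 0.07) rose, and in KWT the stress gene Gadd45b rose (0.50 ± 0.06) and Id3, an inhibitor of basic helix-loop-helix factors, fell by 0.62 ± 0.09.

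Of 28 other ERK targets and feedback genes tested, 8 rose and 0 fell in KHT, and 7 rose and 0 fell in KWT (medians 0.19 and 0.15). These calls are 28.6% and 25% of the list, beside 5.47% and 5.96% of all genes. The collagenase Mmp13 rose by 0.97 ± 0.14 in KHT (adjusted p = 0.00614), the Ras GTPase-activating protein gene Rasal2 by 0.48 ± 0.07, the EGF receptor inhibitor Errfi1 by 0.43 ± 0.07 and the phospholipase Pla2g4a by 0.37 ± 0.07. In KWT Pla2g4a (0.40 ± 0.07), the phosphatase Dusp9 (0.45 ± 0.09), Hmga2 (0.33 ± 0.06) and the ETS factor Elk3 (0.32 ± 0.07) rose. Among 21 growth factors and receptors tested, 3 rose and 1 fell in KHT (19%) and 1 rose and 2 fell in KWT (14.3%). The ErbB ligand Nrg1 rose by 0.62 ± 0.06 in KHT and 0.61 ± 0.06 in KWT, and Fgf1 fell by 0.53 ± 0.06 and 0.74 ± 0.06. In KHT the cytokine Lif (0.73 ± 0.14) and the EGF receptor ligand Hbegf (0.27 ± 0.06) rose, and in KWT the receptor Erbb3 fell by 0.62 ± 0.12.

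The next question was whether the 2 conditioned media differ. By limma no member passed the threshold between KHT and KWT, and neither did any other gene (0% of 19686). Egr1, Egr2, Fos and Myc had the largest positive differences, 0.29 to 0.48 on the log2 scale, and Nr4a3 the largest negative one. At an unadjusted p under 0.05, 9 members (25%) differed, beside 4.88% of all genes. Of the 36 differences 31 (86.1%) were positive, beside 48.1% of all genes, with a median of 0.09, beside -0.005. The arrays did not overlap for 10 members that were higher in KHT (6.64% of all genes) and 1 that was lower (4.83%).

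Egr1, with 1.84, 1.62 and 1.93 in KHT and 1.33, 1.36 and 1.23 in KWT, differed by 0.48 ± 0.09 (95% interval 0.29 to 0.68, adjusted p = 0.876). The lowest KHT array (1.62) lay above the highest KWT array (1.36), with an SD of 0.16 in KHT and 0.07 in KWT. Egr2 differed by 0.44 ± 0.11 (0.19 to 0.69, adjusted p = 0.876), and by 0.219 with normexp background correction and 0.238 in the series matrix. Fos differed by 0.37 ± 0.11 (0.11 to 0.62, adjusted p = 0.923) and Myc by 0.29 ± 0.07 (0.11 to 0.46, adjusted p = 0.902). A second Myc probe gave 0.27.
Smaller differences without overlap were those of Spry1 (0.23 ± 0.07), Klf10 (0.22 ± 0.07), Zfp36 (0.22 ± 0.11), Dusp5 (0.19 ± 0.06), Phlda1 (0.10 ± 0.06) and Fosl2 (0.10 ± 0.08). Spry1 read 1.75, 1.66 and 1.75 in KHT and 1.53, 1.46 and 1.48 in KWT. For Dusp5 the dimmer probe gave the opposite sign, -0.12, and the mean of both probes 0.036. Without KWT 1, Zfp36 differed by 0.094. Nr4a3 had the opposite sign, -0.28 ± 0.10 (-0.51 to -0.05, adjusted p = 0.984), and its 2 other probes, not well above background, gave 0.21 and 0.08.
Egr1 differed by 0.549 within slide 1 and 0.319 within slide 2. Without KWT 2, Egr1 differed by 0.510, Egr2 by 0.449, Fos by 0.270 and Myc by 0.273, with 0 members past the threshold. The other 7 then had 0.252 (Zfp36), 0.238 (Klf10), 0.217 (Spry1), 0.187 (Dusp5), 0.110 (Fosl2), 0.076 (Phlda1) and -0.205 (Nr4a3). Junb, Ier3, Fosl1 and Dusp6 lay near 0 (-0.04, -0.01, 0.03 and 0.01), with 95% intervals that reach from -0.25 to 0.17 for Junb and from -0.18 to 0.16 for Ier3.
Of the pathway lists, 0 of 23 core genes, 0 of 40 other immediate early genes, 0 of 28 other targets and 0 of 21 growth factors and receptors passed between the media. At an unadjusted p under 0.05 there were 0, 7, 2 and 3, beside 4.88% of all genes.

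**Figure D3:**
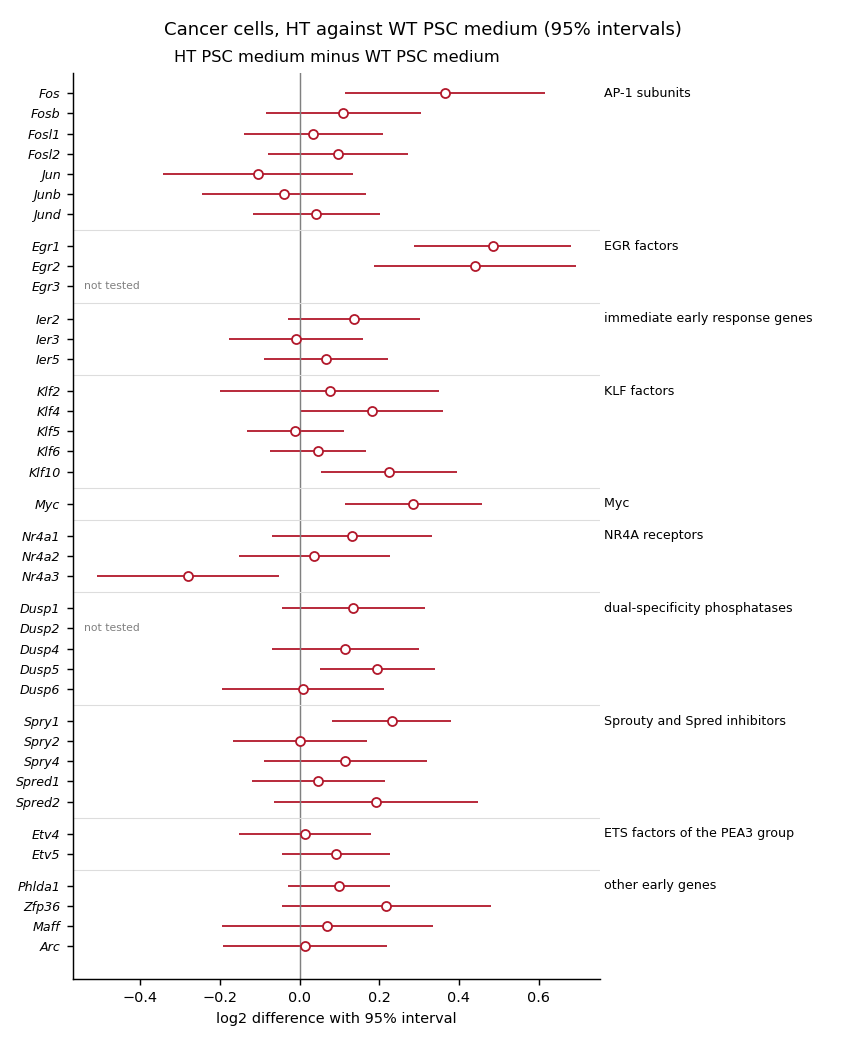
Difference between cancer cells in HT and in WT PSC medium for 36 members, in log2 units with 95% intervals from limma (3 arrays a group, 2 for Maff in WT PSC medium), by role. Open points did not pass the threshold, and no member did. Egr1 (0.48), Egr2 (0.44) and Fos (0.37) lie farthest to the right and Nr4a3 (-0.28) farthest to the left.

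The stellate cells that made the media were compared by genotype. In PSC HT the bZIP gene Maff was higher and the ERK phosphatase gene Dusp5 lower than in PSC WT. Of 38 members tested, 1 rose and 1 fell, 5.26% beside 7.73% of 20886 genes (2.95% higher and 4.78% lower), a share near that of all genes. With quantile normalization 1 rose and 2 fell (33.3% higher, against 50%). The median difference was -0.10 (all genes -0.003) and moved to -0.02 without PSC WT 1. At an unadjusted p under 0.05, 12 members (31.6%) differed, beside 22.2% of all genes. PSC HT and PSC WT did not overlap for 5 higher members (14.1% of all genes) and 6 lower ones (15%). No member was past the threshold with at least 2-fold, where 1.02% of all genes were higher and 1.78% lower. In bulk samples of cultures, fewer cells of a type and less RNA per cell cannot be told apart.

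Dusp5 read 1.92, 1.48 and 1.64 in PSC HT, against 2.76, 2.37 and 2.25 in PSC WT. The groups did not overlap, and Dusp5 fell by 0.78 ± 0.17 (1.72-fold, adjusted p = 0.0453). The dimmer Dusp5 probe gave -1.09, and with slide as a block the difference was -0.903 (adjusted p = 0.0153), with -0.978 within slide 1 and -0.828 within slide 2. Maff read 2.22, 2.14 and 2.17 in PSC HT, against 1.92, 1.82 and 1.79 in PSC WT, and rose by 0.33 ± 0.07 (adjusted p = 0.042), with 0.305 and an adjusted p of 0.0555 with slide as a block. Within slide 1 it differed by 0.280 and within slide 2 by 0.331.
Without PSC HT 3, the array with Cdh1 signal, Dusp5 had -0.757 and Maff 0.333, and neither passed (adjusted p = 0.119 each). Each of them passed in 1 of 6 fits with an array left out, Dusp5 without PSC HT 1 (-0.900 to -0.630, adjusted p up to 0.12) and Maff without PSC WT 1 (0.307 to 0.369, adjusted p up to 0.168).

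Dusp6 lay close to the threshold in the same direction as Dusp5, at 2.43, 1.87 and 2.20 in PSC HT, against 3.19, 2.78 and 2.76 in PSC WT (-0.74 ± 0.18, adjusted p = 0.061). Fosl1 read 0.45, -0.09 and 0.01 in PSC HT, against -0.43, -0.50 and -0.59 in PSC WT (0.63 ± 0.15, adjusted p = 0.0584). Spry1 (0.26 ± 0.07, adjusted p = 0.074) and Ier5 (0.23 ± 0.07, adjusted p = 0.0977) were also without overlap. Without PSC HT 3 these 4 had -0.76 (Dusp6), 0.69 (Fosl1), 0.24 (Spry1) and 0.23 (Ier5), with adjusted p of 0.1 to 0.223. The other feedback inhibitors Spry2, Spry4, Spred1 and Spred2 had -0.22, -0.47, -0.26 and -0.19, none past the threshold, and second probes of Spry2 and Spred2 gave the opposite sign (0.15 and 0.07).
Egr1 (0.19 ± 0.13), Egr2 (0.17 ± 0.23), Junb (0.00 ± 0.10) and Klf4 (-0.10 ± 0.10) overlapped between genotypes. Fos had -0.30 ± 0.09 without overlap (adjusted p = 0.126), and Fosb had -0.53 ± 0.22 (adjusted p = 0.234). PSC WT 1 held the highest value of the 6 arrays for 21 of the 38 members. Nr4a3 ranged from -3.61 to -1.98 within PSC WT.

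**Figure D4:**
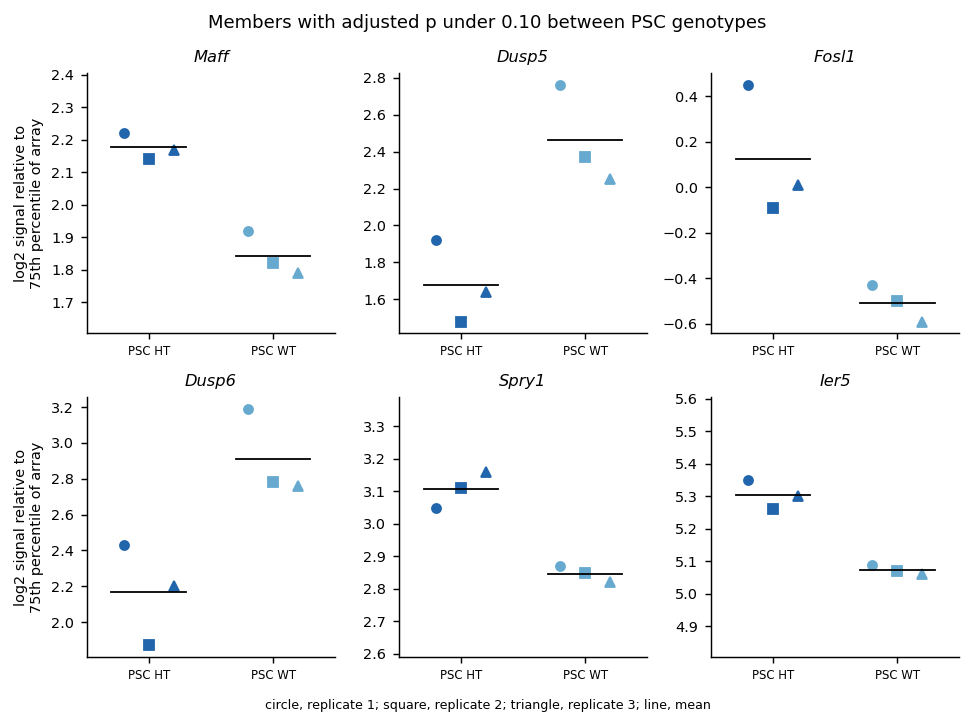
Values on every PSC array (log2 signal relative to the 75th percentile of the array) of the 6 members with an adjusted p under 0.10 between the genotypes. Points are arrays, shaped by replicate number, and lines are group means. No group overlaps the other in these 6. Maff and Dusp5 passed an adjusted p of 0.05, and Dusp5 and Dusp6 are lower in PSC HT.

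Markers of other cell types moved with genotype in these cultures. Of 19 macrophage markers tested 16 were higher in PSC HT, with a summed signal of 20 markers of 121.9 to 261.2 times the 75th percentile in PSC HT, against 54.77 to 73.42 in PSC WT. Of 9 mesothelial markers 6 were lower (11.91 to 20.15 in PSC HT, against 41.16 to 51.59 in PSC WT), and of 8 endothelial markers tested 6 were lower (sum over 12 of 7.562 to 8.558 in PSC HT, against 9.031 to 9.423 in PSC WT). The cancer cell arrays had higher sums, 272.6 to 328.7 (mesothelial) and 14.23 to 19.56 (endothelial). These 2 sums thus do not measure mesothelial or endothelial cells alone. The part of macrophages, mesothelial and endothelial cells in the differences of Dusp5, Maff, Dusp6 and Fosl1 was not tested.
Of the pathway lists, 0 of 23 core genes passed between the genotypes by limma (3 at an unadjusted p under 0.05). In the next lists, in the order below, 10%, 17.9% and 14.3% passed. Over all genes 7.73% passed, and 22.2% had an unadjusted p under 0.05. Among 40 other immediate early genes 1 rose and 3 fell, Ccn1 by 0.36 ± 0.08, and the mRNA decay factor Zfp36l1 (-0.77 ± 0.11), the NF-kappaB inhibitor Tnfaip3 (-0.65 ± 0.09) and the antiproliferative Btg2 (-0.65 ± 0.09). Among 28 other ERK targets 3 rose and 2 fell: the receptor tyrosine kinase Epha2 fell by 1.04 ± 0.08 and the phosphatase Dusp14 by 0.88 ± 0.08, while Errfi1 (0.53 ± 0.08) and the secreted Vgf (1.20 ± 0.23) rose. Of 21 growth factors and receptors, the HGF receptor Met fell by 1.28 ± 0.09 and Fgf2 by 0.45 ± 0.10, and the oncostatin M receptor Osmr rose by 0.33 ± 0.07.

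The members were last compared between the cell types, PSC WT against KC, neither of which had received conditioned medium. The PSC WT cultures had far more of the EGR factors, Klf2, Dusp1, Nr4a1, Arc, Fos, Fosb, Jun and Zfp36, and cancer cells had more Klf5, Myc, Dusp6, Fosl1 and Nr4a2. On the PSC WT arrays 17 to 19 of 20 macrophage markers, 9 of 9 mesothelial and 8 to 10 of 12 endothelial markers were well above background. The KC arrays had 8, 3 and 4 to 5 of these. The part of such cells in the differences was not tested. Of 38 members tested 17 were higher and 10 lower in PSC WT, 71.1% beside 71.4% of 21924 genes (36.1% higher and 35.2% lower), so the share of members that differed was that of all genes. With at least 2-fold, 16 were higher and 5 lower, where 20.8% and 17.8% of all genes were. All 21 passed in each of the 6 fits with an array left out.

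Egr2 read 3.90, 3.59 and 3.47 in PSC WT, against -4.86, -4.63 and -4.73 in KC, a difference of 8.39 ± 0.14 (adjusted p = 2.6e-08). Egr3 read 0.88, 0.59 and 0.70 in PSC WT, against -6.53, -6.40 and -6.97 in KC, where it was not well above background, and was at least 77.4-fold higher (adjusted p = 9.56e-08). Egr1 was 4.10 ± 0.13 higher, at 5.44, 5.02 and 5.08 in PSC WT, against 1.12, 1.04 and 1.07 in KC. All 3 EGR genes thus stood above the cancer cells on every array.
Klf2, a factor known from endothelium and quiescent lymphocytes, was higher by 4.82 ± 0.11, and Klf5, which drives growth of intestinal epithelium, lower (-4.87 ± 0.11), at -2.09, -1.74 and -1.91 in PSC WT, against 2.91, 2.99 and 2.97 in KC. Klf4 was also lower in PSC WT (-0.90 ± 0.10, adjusted p = 0.000179), and Klf6 and Klf10 had 0.13 ± 0.11 and 0.12 ± 0.09 and did not pass. Myc was lower (-3.02 ± 0.12), at 0.55, 0.23 and 0.18 in PSC WT, against 3.30, 3.31 and 3.40 in KC.

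The AP-1 genes split by subunit: Fos (3.17 ± 0.09), Jun (2.80 ± 0.16), Fosb (2.74 ± 0.21) and Fosl2 (1.56 ± 0.10) were higher in PSC WT and Fosl1 lower (-1.72 ± 0.10), while Junb and Jund had 0.17 ± 0.11 and -0.26 ± 0.11 and did not pass. The phosphatases split too. Dusp1 was higher by 4.25 ± 0.12, at 5.14, 4.80 and 4.95 in PSC WT, against 0.76, 0.78 and 0.59 in KC. Dusp2 was higher, but 1 of 3 KC arrays was well above background, so its size is uncertain (3.00 ± 0.24, and 1.492 with normexp background correction). Dusp6 was lower (-2.55 ± 0.14), at 3.19, 2.78 and 2.76 in PSC WT, against 5.45, 5.52 and 5.40 in KC. Dusp5 had -0.17 ± 0.14 between the cell types and did not pass, and its dimmer probe gave 0.06.
Of the other members with at least 2-fold, Arc (4.10 ± 0.15), Nr4a1 (3.73 ± 0.10), Zfp36 (2.92 ± 0.11), Spry1 (1.24 ± 0.08), Ier2 (1.23 ± 0.16) and Ier5 (1.04 ± 0.08) were higher in PSC WT and Nr4a2 was lower (-1.40 ± 0.08). Ier2 had 0.691 with the mean of its probes and Ier5 0.656 with median scaling. Below 2-fold, Dusp4 was higher (0.81 ± 0.11), and Spry2 (-0.33 ± 0.09), Spred2 (-0.99 ± 0.11), Etv4 (-0.90 ± 0.13) and Etv5 (-0.73 ± 0.15) were lower. Second probes of Spry2 and Spred2 gave the opposite sign (0.05 and 0.22).
With each array scaled to its median, the median of all genes moved to -0.35, against 0.037, and that of the members to -0.21, against 0.18. Calls then numbered 16 higher and 15 lower (51.6% higher, against 63%).

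**Figure D5:**
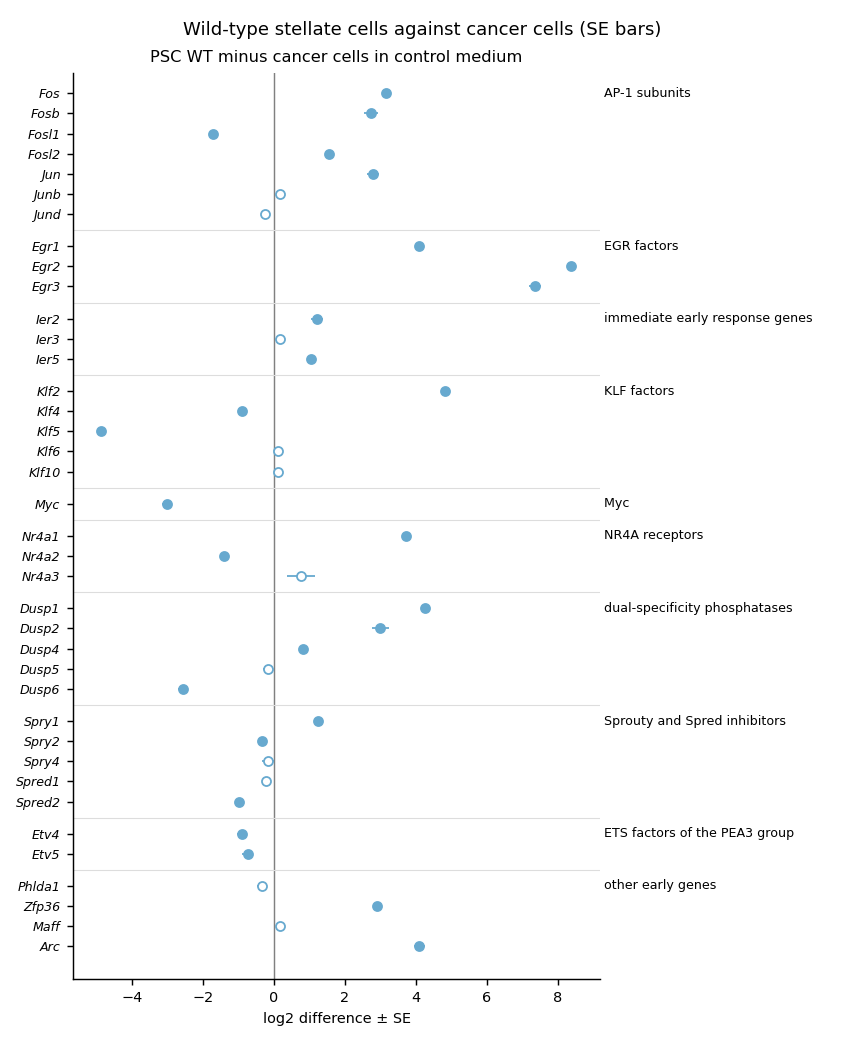
Difference between PSC WT and cancer cells in control medium for 38 members, in log2 units with SE bars from limma (3 arrays a group), by role. Filled points passed an adjusted p of 0.05. Egr2 (8.39) and Egr3 (7.36) lie farthest to the right and Klf5 (-4.87) and Myc (-3.02) farthest to the left; Egr3 was not well above background in the cancer cells, so its point rests on readings near the floor.

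Of the pathway lists between the cell types, 10 of 23 core genes of the cascade were higher and 5 lower in PSC WT. These are 65.2% of the core genes, beside 71.4% of all 21924 genes (36.1% higher and 35.2% lower). The shares were 96% of growth factors and receptors, 92.5% of other immediate early genes and 72.4% of other ERK targets. The ribosomal S6 kinase Rps6ka1 was lower (-3.75 ± 0.11), and the Raf kinase Braf (1.73 ± 0.10), the adaptor Shc1 (1.06 ± 0.10) and the GTPase-activating protein gene Rasa1 (1.00 ± 0.09) were higher. Of 25 growth factors and receptors tested 16 were higher and 8 lower, among them the receptors Pdgfrb (at least 992-fold higher), Pdgfra (at least 122-fold) and Fgfr1 (8.30 ± 0.10) and the ligand Fgf7 (6.51 ± 0.09). Pdgfrb and Pdgfra were not well above background in KC. Of 40 other immediate early genes 25 were higher and 12 lower, with Gadd45g (6.04 ± 0.14), Csrnp1 (3.80 ± 0.08), Ccn1 (3.50 ± 0.08) and Id3 (2.97 ± 0.08) higher. Of 29 other ERK targets 6 were higher and 15 lower. Phlda2, not well above background in PSC WT, was at least 37.8-fold lower and Mmp13 lower (-3.84 ± 0.11), while Phlda3 (3.98 ± 0.11) and the phosphatase Dusp8 (2.19 ± 0.09) were higher.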

How the data were processed

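Gene expression was measured in 15 samples. The deposited scanner files hold spot intensity values in 1 channel, read from the scans by version 10.7.3.1 of Agilent Feature Extraction, per the file headers, which also state background subtraction and detrending within the array. The labels describe labelling through double-stranded cDNA, and strand was not examined. The authors' series matrix holds log2 values whose preparation is not given in the sources used here; it was tried in place of the scanner values within each cell type. From the files log2 processed signal minus each array's 75th percentile was computed, repeated spots were averaged, and scanner outliers and control spots were left out. The brightest probe over all arrays stood for a gene, tested if at least 1 group had it well above background on each array. Bounds ("at least N-fold") for a group whose arrays were all below that level use, per array, the higher of the lowest signal among probes well above background and the probe's own. Differences were fitted with limma 3.58.1 (R 4.3.3) on all genes, in 1 fit for the 9 cancer cell arrays, 1 for the 6 PSC arrays and 1 for PSC WT with KC. The number of arrays, 3 a group, limits the precision.

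The members and lists were chosen with earlier results of these data known. Members past the threshold within a cell type are given array by array, and other genes by rule: at least 2-fold between cell types, or up to 4 of a list by smallest p. Coordinates are those of the files (mm9); no mm9 annotation was used, so exon and UTR positions are not stated. Same-number arrays of KWT and KC deviated together in each of the 3 pairs (r = 0.206, 0.252 and 0.221 over genes). Some differently numbered arrays did so as much (0.222 for KWT 1 with KC 3, 0.224 for KWT 2 with KC 1, 0.21 for KWT 3 with KC 2). The others had -0.456 to -0.424. These values thus do not show that the replicate number pairs the arrays, and the labels state no pairing. The main fits hold no block, and the replicate number was a block only as an alternative. In each of the other comparisons at least 1 same-number pair lay below 0.1 (r = -0.25 to 0.379). Alternatives changed background correction, scaling, filter, probe, blocks, variance model, arrays, threshold and source of values. Tables and figures were made with pandas 2.3.3, matplotlib 3.10.9 and numpy 2.4.6 under Python 3.11.15.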

Additional observations from a re-analysis of the deposited data

How the results depend on the processing

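For KHT against KC, the count of members that rose was 3 with arrays scaled to their median, 3 with no filter on dim probes, 7 with all 15 arrays in 1 fit and 4 with the arrays of the compared groups alone. It was 0 within slide 1 and 0 within slide 2, where 0 members fell too and where 1 or 2 arrays of a group remain. The members' median was 0.252 with median scaling and 0.093 within slide 2, against 0.192. That of all genes was 0.071 and -0.011, against 0.011. For KWT against KC, the count that rose was 2 with median scaling, 1 with no filter, 2 with all 15 arrays and 2 with the compared groups alone, and 0 within either slide. The count that fell was 1 with median scaling, no filter, the mean of all probes, a trended robust variance, all 15 arrays or the compared groups alone, and 0 within either slide. The members' median was 0.167 with median scaling and 0.077 with the series matrix, against 0.116. That of all genes was 0.077 and 0.017, against 0.025. Between KHT and KWT the median was 0.134 within slide 1 and 0.043 within slide 2, and the counts stayed at 0.

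Between the PSC genotypes the counts that rose and fell were 2 and 2 with normexp correction or the strict filter, 0 and 0 with median scaling or no filter, 0 and 3 with slide as a block, 3 and 2 with a trended robust variance or the series matrix, 5 and 2 with all 15 arrays, and 4 and 2 at an adjusted p of 0.10. Quantile normalization gave 2 that fell. None rose within slide 1 or slide 2, and none fell within slide 1. Between PSC WT and KC the median reversed to -0.208 with median scaling and was 0.320 within slide 1. Leaving out an array gave 3 to 8 that rose in KHT, 2 to 4 that rose and 1 to 2 that fell in KWT, and 0 to 1 each way between the genotypes. The causes were not tested.

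With the replicate number as a block, 3 members rose and 2 fell in KWT against KC (966 genes called, against 1173). Junb was the 1 call lost. In the other comparisons, 6 rose and 1 fell in KHT against KC (796, against 1077), and 0 and 0 between the media. Between the PSC genotypes 0 rose and 2 fell (1151, against 1615), and between PSC WT and KC 17 rose and 9 fell.

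Over all genes, KHT against KC had 535 calls with median scaling, 334 with no filter, 499 with the compared groups alone and 1845 at an adjusted p of 0.10, against 1077. KWT against KC had 638 with median scaling, 467 with no filter and 1903 at an adjusted p of 0.10, against 1173. The PSC genotypes had 401 with no filter, 2459 with all 15 arrays and 2566 at an adjusted p of 0.10, against 1615. Over 19 alternatives outside single slides, Klf4, Dusp5 and Egr1 passed in all 19 for KHT against KC and Fosb in 18. For KWT against KC, Klf4 passed in 19, Dusp5 in 18, Fosb in 17 and Ier3 in 15. Between the PSC genotypes Dusp5 passed in 11 and Maff in 9 of 18. No member followed in these fits changed sign. The members followed had passed the threshold, with at least 2-fold between the cell types, or did not overlap between the media.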
